A study of Mus musculus with 5 samples.

Results

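The genes described here are 7 Toll-like receptors of the mouse (Tlr1, Tlr2, Tlr4, Tlr6, Tlr7, Tlr9 and Tlr13) and 3 proteins that carry their signal (Myd88, Irak3 and Irak4). They were taken by symbol from a table of 14462 rows with 14457 distinct gene symbols, and all 10 had a row and passed the filter on low values. RNA was measured in cells sorted from mouse lung for CD45, a surface protein of nearly all leukocytes. All groups carried tumours of MC38, a mouse colon carcinoma cell line, which the labels write as MC38/MC38 tumors, and lungs were collected 3 days after irradiation of the tumour. The 2 groups are ctrl (3 libraries) and IR, for irradiated (2 libraries). The labels give no strain, age, sex or radiation dose, do not say how ctrl mice were handled beyond that word, and do not say whether libraries came from separate animals, so p-values cover only the spread between these samples, and that spread may be technical.

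Toll-like receptors recognise conserved parts of microbes. Tlr2 pairs with Tlr1 or Tlr6 at the cell surface to bind bacterial lipopeptides, and Tlr4 senses lipopolysaccharide with the help of the co-receptor Cd14. Tlr7, Tlr9 and Tlr13 sit in endosomes and detect single-stranded RNA, unmethylated CpG DNA and bacterial ribosomal RNA, respectively. These receptors recruit the adaptor Myd88, which assembles with the kinase Irak4 to activate NF-kB, whereas Irak3 (IRAK-M) lacks effective kinase activity and restrains the pathway. In lung, macrophages, monocytes and neutrophils are known for the surface receptors, and B cells and plasmacytoid dendritic cells are known for Tlr7 and Tlr9.

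The deposited values are scaled read counts for each gene, and they total 7232126 to 7425923 in ctrl and 7544034 and 8414753 in the IR libraries. The smallest step between values, about 0.728 to 0.934, corresponds to roughly 1 read. Ptprc, which encodes CD45, took 0.212% to 0.219% of the total in ctrl, and the share was 0.230% in the first IR library (IR replicate 1) and 0.324% in the second (IR replicate 2). IR replicate 2 stood apart from the other 4 libraries: on the first principal component, with 41.6% of the variance, it lay at 131.4 against -51.7 to -6.2. Values are therefore given by library. Of 12777 genes tested with limma, 1.50% passed at an adjusted p under 0.05 (146 higher in IR and 46 lower, 76.0% higher); after scaling to library totals, 55.2% of calls were higher, with a shift of -0.12 in the median log2 fold change over all genes.

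Among the 10 genes, 1 rose in IR, 0 fell and 9 did not pass (limma, Benjamini-Hochberg adjusted over all genes); over all genes 1.14% were called higher and 0.360% lower. The gene that rose was Tlr13. At an unadjusted limma p under 0.05, 5 of the 10 were higher (Tlr2, Tlr4, Tlr6, Tlr13 and Myd88) and 0 were lower, against 7.76% and 7.20% of all genes. After scaling to library totals, 3 of the 10 were higher at that threshold (Tlr6, Tlr13 and Myd88), beside 732 of 12762 genes tested. Both IR libraries lay above all 3 ctrl libraries for 4 of the 10 (Tlr4, Tlr6, Tlr13 and Myd88), and below them for 0, where 15.2% and 16.3% of all genes were separated in these directions. The median log2 fold change of the 10 was 0.33, beside -0.05 for all genes tested. Of the 10, 7 had a log2 fold change above 0, against 46.8% of all genes. The median was 0.15 for IR replicate 1 alone and 0.66 for IR replicate 2 alone, and 6 of the 10 genes had their highest value in IR replicate 2.

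**Figure D1:**
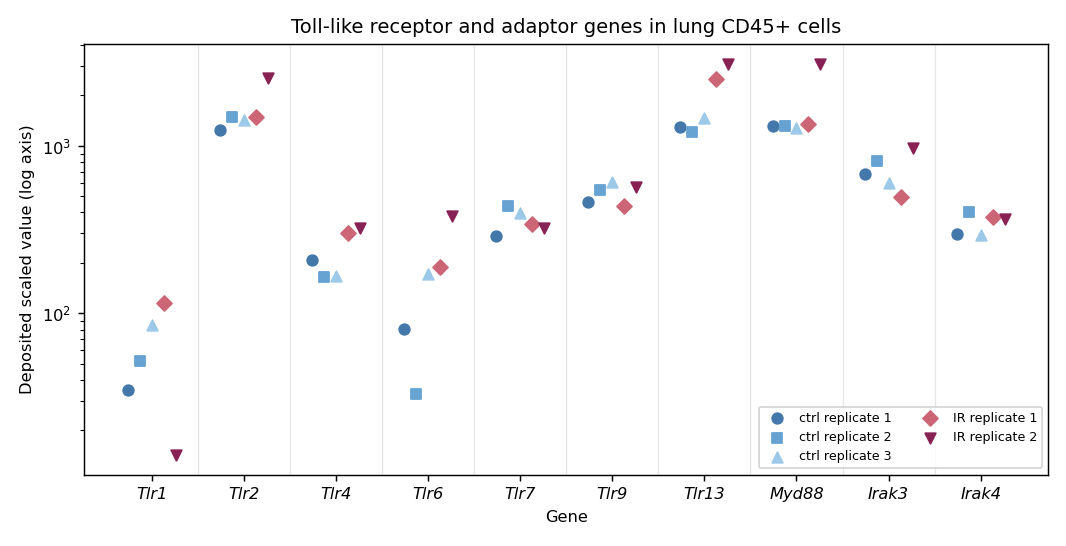
Deposited scaled values (y axis, log scale) of the 10 genes (x axis) in each of the 5 libraries, 1 point per library. Both IR points lie above all ctrl points for Tlr4, Tlr6, Tlr13 and Myd88, and for Myd88 IR replicate 1 (1354) lies close to ctrl while IR replicate 2 (3092) does not.

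**Figure D2:**
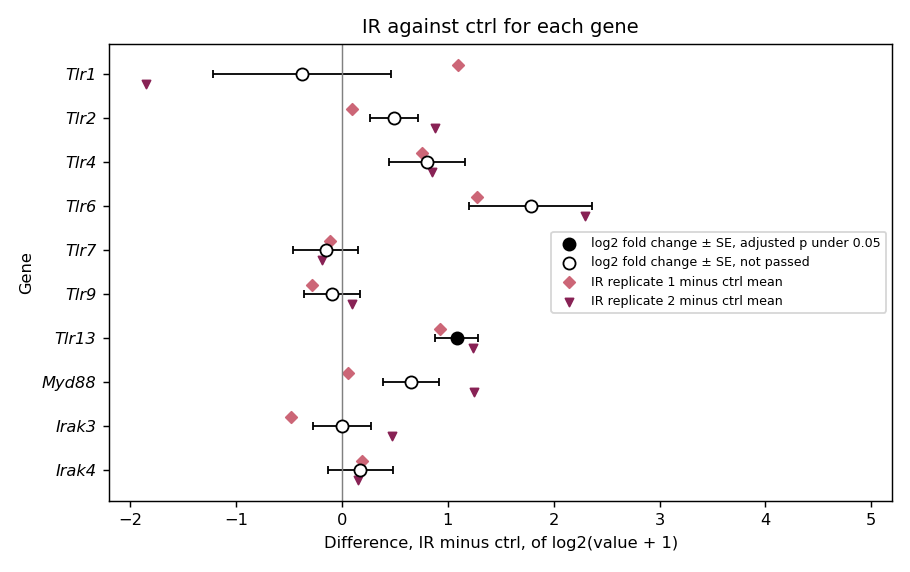
Log2 fold change of IR against ctrl on the log2(value + 1) scale (x axis) for each gene (y axis), with bars of 1 SE; a filled circle marks an adjusted p under 0.05. Diamonds and triangles give each IR library minus the ctrl mean, and Tlr13 (0.93 and 1.24) is the filled one, whereas the IR libraries of Tlr1 lie on opposite sides of 0.

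Levels were set beside each other per kilobase of merged exons (GENCODE vM21), since longer transcripts give more reads. In ctrl, Myd88 was highest with 504 ± 5.85 scaled reads per kb (SD, n = 3), followed by Tlr2 with 461 ± 42.8, Tlr13 with 307 ± 29.7, Irak3 with 163 to 222 over the 3 libraries, Tlr9 with 155 ± 20.5 and Tlr7 with 91.5 ± 18.7. Irak4 had 66.1 ± 12.5, Tlr4 32.4 ± 4.50, Tlr6 25.5 ± 18.9 and Tlr1 17.1 ± 7.71. The ctrl ranges of 4 neighbouring pairs overlapped: Irak3 with Tlr9, Tlr7 with Irak4, Tlr4 with Tlr6, and Tlr6 with Tlr1. In IR replicate 1 the highest per-kb level was that of Tlr13 (582), above Myd88 (526) and Tlr2 (492), whereas in IR replicate 2 the order was Myd88 (1200), Tlr2 (847) and Tlr13 (721). The 3 most abundant genes per kb were thus the same in every library, and their order differed between the IR libraries.

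Tlr13, the endosomal sensor of bacterial ribosomal RNA (chromosome X, 106143204 to 106160493, plus strand, mm10), was 1293, 1208 and 1459 in ctrl against 2506 and 3102 in IR. The groups did not overlap, and both IR libraries were high. The ctrl mean was 1320 ± 128 (SD, n = 3) and the IR mean 2804 ± 421 (SD, n = 2), which gave a log2 fold change of 1.08 ± 0.20 (SE; adjusted p = 0.00659 by limma), or 2.12-fold on the log2(value + 1) scale. After scaling to library totals it was 0.96 (limma adjusted p = 0.00744). By p the gene ranked 36 among the 12777. With 1 library left out, the log2 fold change stayed between 0.93 and 1.24, and the gene passed without ctrl replicate 3 (limma adjusted p = 0.0273) and without IR replicate 1 (0.0031). It missed the threshold without ctrl replicate 1 (0.0869) or 2 (0.0786) or without IR replicate 2 (0.0529), and with the mean trend off (0.46), where limma called 0 genes in the whole table.

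The promoter of Tlr13 is shown, as the sequence in front of the gene that rose, beside that of Tlr9, an endosomal receptor that did not pass. The stretches end where the annotated GENCODE gene begins and come from RefSeq (GRCm38.p6); capitals mark GAGGAA, the core bound by the myeloid factor PU.1 (Spi1). They lie at chrX:106143025-106143203 and chr9:106222348-106222597, both on the plus strand.
Tlr13: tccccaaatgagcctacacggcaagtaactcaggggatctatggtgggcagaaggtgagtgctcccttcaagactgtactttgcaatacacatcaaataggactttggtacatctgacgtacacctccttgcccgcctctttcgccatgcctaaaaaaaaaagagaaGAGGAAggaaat
Tlr9: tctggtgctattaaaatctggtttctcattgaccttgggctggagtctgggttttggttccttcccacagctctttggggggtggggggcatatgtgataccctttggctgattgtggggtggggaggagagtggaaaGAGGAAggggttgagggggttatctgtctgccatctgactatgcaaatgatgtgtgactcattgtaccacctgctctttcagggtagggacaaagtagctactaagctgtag
RefSeq windows from 250 bases before to 50 bases after each start were found for 8 of the 10 genes (11 windows; not Tlr4 and Tlr7), and GAGGAA was searched on both strands. GAGGAA was in a window of Tlr1, Tlr9, Tlr13 and Irak3, that is in 4 of 11 windows, and in 28.3% of all 32851 windows in the table.

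Tlr9 and Tlr7, the other endosomal receptors, gave values that overlapped between groups. Tlr9 (chromosome 9, 106222598 to 106226883) was 465, 544 and 607 in ctrl and 440 and 571 in IR, for a log2 fold change of -0.09 ± 0.27 (SE; adjusted p = 0.904 by limma). Tlr7 (chromosome X, 167304929 to 167330558) was 288, 436 and 397 in ctrl and 340 and 323 in IR, with a log2 fold change of -0.15 ± 0.31 (SE; adjusted p = 0.862 by limma). For both genes the IR libraries fell inside the ctrl range or just under it. Tlr8, a related endosomal receptor of RNA that lies outside the 10, was 282, 355 and 329 in ctrl and 303 and 427 in IR (log2 fold change 0.16 ± 0.31, limma adjusted p = 0.851).

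Within a library, the value of Tlr13 divided by that of another gene does not depend on the scaling between libraries. Tlr13 was 4.49, 2.77 and 3.67 times the value of Tlr7 in ctrl, and 7.37 and 9.61 times in IR. It was 2.78, 2.22 and 2.40 times that of Tlr9 in ctrl, and 5.69 and 5.43 times in IR. Per value of Unc93b1, the chaperone that brings endosomal receptors to their compartment, it was 0.316, 0.352 and 0.350 in ctrl and 0.578 and 0.760 in IR. Per value of Ptprc it was 0.0816, 0.0777 and 0.0924 in ctrl and 0.144 and 0.114 in IR. These groups did not overlap. Tlr13 per value of Csf3r, the G-CSF receptor of neutrophils, was 0.294, 0.192 and 0.195 in ctrl and 0.228 and 0.167 in IR, and here the groups overlapped. Since Tlr13 was taken because it was called, and the divisors with their values known, the 7 ratios are a description with no test. Csf3r was itself higher in IR (log2 fold change 1.28).

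**Figure D3:**
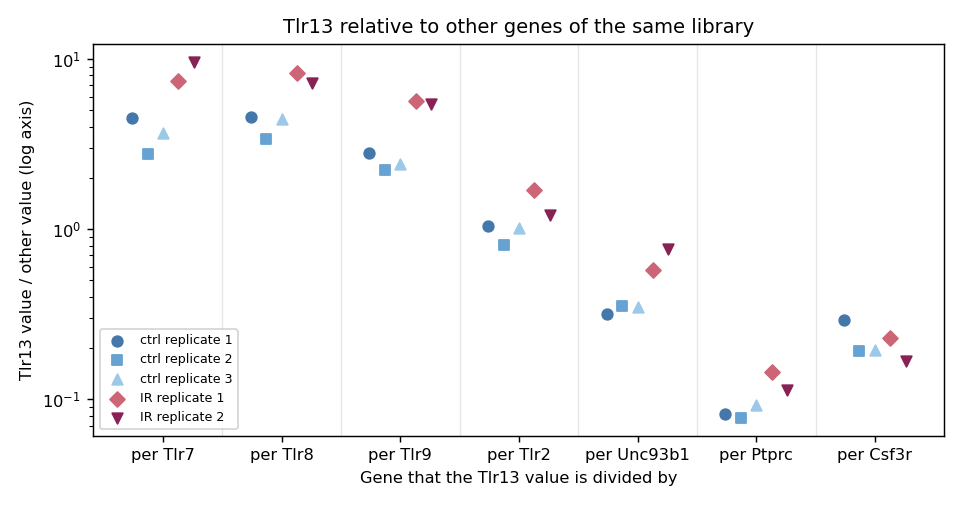
Value of Tlr13 divided by that of 7 other genes in the same library (y axis, log scale), 1 point per library. Both IR points lie above all ctrl points for 6 divisors, and for Csf3r they overlap (0.228 and 0.167 in IR, 0.192 to 0.294 in ctrl).

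By the smallest mean absolute difference between centred log2 profiles over the 5 libraries, the genes most like Tlr13 were Hp, the haemoglobin scavenger haptoglobin (0.055), Ndufa3, a subunit of respiratory complex I (0.068), and Marcks, a substrate of protein kinase C (0.071). Hp was 2679, 2657 and 3159 in ctrl and 6098 and 6851 in IR. The measure is a description over 5 libraries.

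Of the 4 surface receptors 0 passed. Tlr2 (chromosome 3, 83836272 to 83841767, minus strand) was 1245, 1495 and 1426 in ctrl and 1483 and 2553 in IR, so only IR replicate 2 lay above ctrl. The fitted log2 fold change was 0.49 ± 0.23 (SE; adjusted p = 0.311 by limma); without IR replicate 1 it was 0.88 (limma adjusted p = 0.0255) and without IR replicate 2 it was 0.10 (0.923). Tlr4, the lipopolysaccharide receptor (chromosome 4, 66827584 to 66930284), was 209, 164 and 166 in ctrl and 303 and 323 in IR. Both IR libraries were high and close to each other, with a log2 fold change of 0.80 ± 0.36 (SE) that did not pass (limma adjusted p = 0.296).

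Tlr6, the other partner of Tlr2, was 80.2, 32.9 and 172 in ctrl and 188 and 382 in IR, for a log2 fold change of 1.78 ± 0.58 (SE; adjusted p = 0.141 by limma), and its values in ctrl spread widely. The log2 fold change was 1.18 without ctrl replicate 2, 1.28 without IR replicate 2 and 2.36 without ctrl replicate 3, so its size depends on single libraries, and it passed under none of the 14 alternatives. Tlr1 was 34.6, 52.1 and 85.4 in ctrl, with the highest of all 5 libraries in IR replicate 1 (116) and the lowest in IR replicate 2 (14.2). The log2 fold change of Tlr1 was -0.37 ± 0.84 (SE; adjusted p = 0.876 by limma) and became 1.10 without IR replicate 2 (0.68). These genes lie side by side on chromosome 5 (Tlr1 at 64924679 to 64933563, Tlr6 at 64952031 to 64960097, both on the minus strand) and share sequence. Of the 50-base windows in the coding sequence, 19.4% of those in Tlr1 also occur in Tlr6, and no other of the 10 genes shares such a window. The longest identical stretch, 229 bases at chr5:64925537-64925765 in Tlr1 and chr5:64953828-64954056 in Tlr6, is shown because reads that lie wholly inside it match both genes.
Tlr1 and Tlr6: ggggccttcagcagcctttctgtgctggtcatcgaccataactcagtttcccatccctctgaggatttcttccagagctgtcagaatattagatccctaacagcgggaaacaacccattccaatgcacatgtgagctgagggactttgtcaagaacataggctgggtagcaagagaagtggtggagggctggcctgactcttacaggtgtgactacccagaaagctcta
How the authors counted such reads is not given in the sources used here, so the single values of both genes are uncertain. Their summed value was 115, 85.0 and 257 in ctrl and 304 and 396 in IR, and both IR libraries were above ctrl.

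Myd88, the shared adaptor (chromosome 9, 119335934 to 119341411, minus strand), was 1307, 1307 and 1281 in ctrl and 1354 and 3092 in IR. The ctrl libraries were nearly equal, IR replicate 1 was just above them, and IR replicate 2 was far above. The log2 fold change was 0.66 ± 0.27 (SE; adjusted p = 0.252 by limma). It was 1.25 without IR replicate 1 (limma adjusted p = 0.00256) and 0.06 without IR replicate 2 (0.956), so the value rests on the latter library. The annotated span of Myd88 overlaps Acaa1a on the other strand and Slc22a14, and those of Irak3 and Irak4 overlap Tmbim4 and Twf1 on the other strand; whether counting used strand is not given in the sources used here.

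Irak4, the kinase that Myd88 recruits, was 298, 405 and 294 in ctrl and 376 and 366 in IR, with overlapping groups and a log2 fold change of 0.17 ± 0.31 (SE; adjusted p = 0.839 by limma). Irak3, the restraining member, was 681, 818 and 599 in ctrl, with the lowest value in IR replicate 1 (498) and the highest in IR replicate 2 (966). These opposite shifts, -0.48 and 0.48 on the log2 scale, gave a log2 fold change of 0.00 ± 0.27 (SE).

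Of 84 further pathway genes written down by role, 81 had a row and 79 were tested; 1 rose, 0 fell and 78 did not pass (limma), with 17 higher and 3 lower at an unadjusted p under 0.05. The all-gene shares are 1.14% called higher, and 7.76% higher and 7.20% lower at an unadjusted p, so that 1 call among 79 is close to the share over all genes. The median log2 fold change of the 79 was 0.13, beside -0.05 for all genes. Cd14, which hands lipopolysaccharide to Tlr4, was the one that rose. It was 4132, 4865 and 6717 in ctrl and 10186 and 16829 in IR, for a log2 fold change of 1.35 ± 0.23 (SE; adjusted p = 0.00449 by limma), and the groups did not overlap. After scaling to library totals it was 1.23 (limma adjusted p = 0.0017). It passed without ctrl replicate 3 and without either IR library, and missed the threshold without ctrl replicate 1 (0.0851) or ctrl replicate 2 (0.0845) and with the mean trend off (0.475).

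Of the 10 co-receptors and chaperones, Cd14 rose, 0 fell and 9 did not pass (median log2 fold change 0.09). Of 4 other Toll-like receptors, 0 passed, with Tlr5, the flagellin receptor, at 30.4, 86.8 and 63.5 in ctrl and 146 and 149 in IR (log2 fold change 1.40 ± 0.59, limma adjusted p = 0.265). Tlr12, which recognises profilin of protozoa, had a log2 fold change of -1.04 (0.628) at values of 12.1 to 76.0. The 4 other adaptors tested had a median of 0.36 and 0 passed. Tirap, which bridges Tlr2 and Tlr4 to Myd88, was 136, 132 and 140 in ctrl and 177 and 282 in IR (log2 fold change 0.71 ± 0.42, limma adjusted p = 0.434), while Ticam1, the adaptor of the Myd88-independent arm, and Pik3ap1 had log2 fold changes of 0.50 and -0.04 (0.656 and 0.959).

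Downstream, 17 kinases and ubiquitin enzymes had a median log2 fold change of -0.01 and 0 passed. Tab2, a scaffold of the kinase Tak1, was 1470, 1578 and 1566 in ctrl and 1949 and 2627 in IR (log2 fold change 0.56 ± 0.21, limma adjusted p = 0.188), and both IR libraries were above ctrl. Ikbkb, the kinase that marks IkB for degradation, and Peli1, a ubiquitin ligase, had log2 fold changes of -0.52 and -0.07 (0.323 and 0.919). Of 10 other negative regulators 0 passed (median 0.17). Nfkbia, the NF-kB inhibitor that NF-kB itself induces, was 10711, 10000.0 and 11757 in ctrl and 15028 and 31741 in IR, with a log2 fold change of 1.02 ± 0.25 (SE; adjusted p = 0.058 by limma). Tnfaip3, the deubiquitinase A20, and Inpp5d, a lipid phosphatase, had log2 fold changes of 0.13 and -0.20 (0.788 and 0.674).

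Of 5 receptors of the interleukin 1 family, 4 were higher at an unadjusted limma p under 0.05, where 7.76% of all genes were, and 0 passed. The list holds Il1r2, a decoy receptor that lacks the signalling domain and is also a neutrophil marker, and its own log2 fold change of 1.27 (limma adjusted p = 0.0764) is the median of the 5. Without Il1r2, a choice made after the values were seen, 3 of the 4 receptors that signal through Myd88 were higher at an unadjusted p, 0 passed, and the median was 1.50. Il1rap, the accessory chain of the interleukin 1 receptor, was 237, 478 and 460 in ctrl and 979 and 2796 in IR, and its log2 fold change of 2.15 ± 0.45 (SE) narrowly missed the threshold (limma adjusted p = 0.0513). Il18rap, the accessory chain of the interleukin 18 receptor, had a log2 fold change of 0.85 (0.302). The 13 transcription factors had a median of -0.07 and 0 passed, with Jun at -0.07, Fos at 0.22 and Nfkbiz, an inducible IkB protein, at 0.97 (limma adjusted p = 0.894, 0.628 and 0.132). Of 16 genes that the pathway induces, 0 passed and 6 were higher at an unadjusted limma p under 0.05, beside 7.76% of all genes (median 0.78). Acod1, the enzyme that makes itaconate, was 4429, 6120 and 7971 in ctrl and 10017 and 23636 in IR (log2 fold change 1.36 ± 0.38, limma adjusted p = 0.157). Il1b and Cxcl2 had log2 fold changes of 1.40 and 1.11 (0.352 and 0.107). The median of the induced genes was 0.21 for IR replicate 1 and 1.42 for replicate 2.

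**Figure D4:**
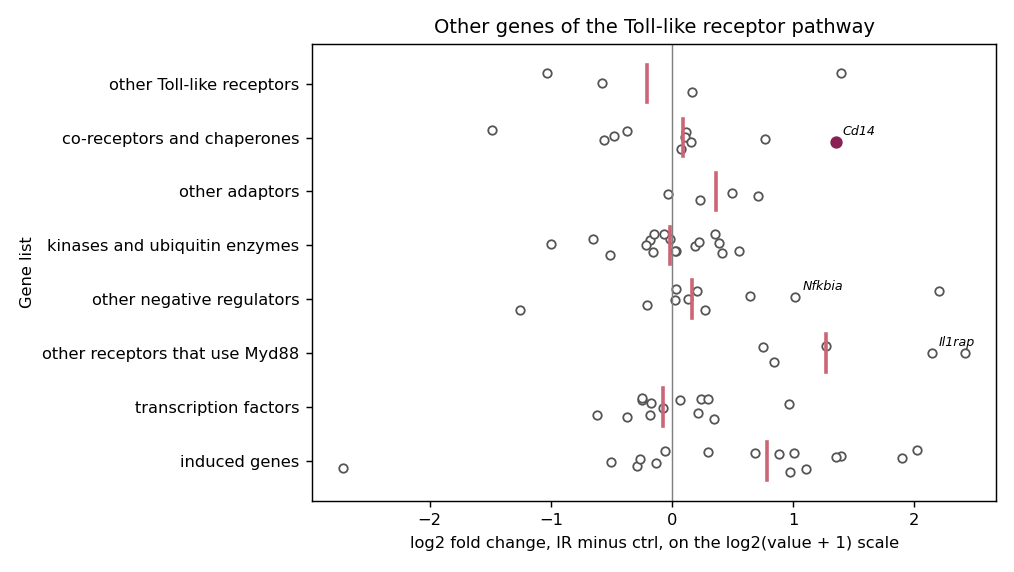
Log2 fold change of IR against ctrl (x axis) of 79 further pathway genes by role (y axis), 1 circle per gene, with a vertical bar at each median. Cd14 (1.35) is the filled circle, the one gene past the threshold, and the list with the decoy receptor Il1r2 has the highest median (1.27), which is that gene's own value.

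Markers of leukocyte classes moved between the same libraries, and in bulk RNA more cells of a type and more RNA per cell cannot be told apart. The marker lists were chosen with earlier results of these data known, so their counts beside the all-gene shares are a description. All 12 mature neutrophil markers had both IR libraries above ctrl, where 15.2% of all genes did, and 5 rose, 0 fell and 7 did not pass (limma), where 1.14% of all genes were called higher. Without IR replicate 2 the log2 fold changes of these 5 were 0.875 to 1.422, against 1.276 to 1.663 with all libraries, and each was smaller. Only 1 IR library is left there, so no spread within IR can be measured and only sizes are given here. With array weights, Retnlg, Hdc, Cxcr2 and Trem1 missed the threshold (limma adjusted p = 0.437, 0.24, 0.0772 and 0.0726). Without ctrl replicate 1, Csf3r, Trem1, Hdc and Retnlg missed it (0.118, 0.134, 0.085 and 0.0972). The same genes missed it without ctrl replicate 2 (limma adjusted p = 0.0995, 0.116, 0.0963 and 0.116). The 12 markers summed to 30824 to 55215 in ctrl and 75855 and 145497 in IR, and their median shift was 0.93 and 1.82 in IR replicates 1 and 2. Csf3r and the myeloid receptor Trem1 each had a log2 fold change of 1.28 (limma adjusted p = 0.0152 and 0.025). The 8 classical monocyte markers summed to 21586 to 27629 in ctrl and 36730 and 32285 in IR, and their median shift was 0.56 and 0.23 in IR replicates 1 and 2. All 8 had a log2 fold change above 0, against 46.8% of all genes, and 2 of them, Hp and Mgst1, rose. Hp missed the threshold without ctrl replicate 1 (limma adjusted p = 0.0524), and Mgst1 passed without each ctrl library in turn. The 6 that did not pass include Ly6c2 (log2 fold change 0.09, limma adjusted p = 0.907) and Ccr2 (0.32, 0.542). Of 9 alveolar macrophage markers 0 passed, and they summed to 5941 to 6401 in ctrl and 3780 and 5112 in IR. Of the 9, 5 had both IR libraries below ctrl and 0 above, where 16.3% and 15.2% of all genes did. At an unadjusted limma p under 0.05, 4 were lower, beside 7.20% of all genes, and the median log2 fold change was -0.63.

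Among classes known for Tlr7 and Tlr9, the 8 B cell markers summed to 5963 to 10411 in ctrl and 6085 and 4787 in IR. Of these, 1 fell, Ebf1 (log2 fold change -1.11, limma adjusted p = 0.0152), which missed the threshold without ctrl replicate 1 (0.155) or 3 (0.127). For this and the lists below, 0.360% of all genes were called lower and 1.14% higher. The 6 plasmacytoid dendritic cell markers summed to 1631 to 2161 in ctrl and 1568 and 2355 in IR, and 0 passed. Of 7 conventional dendritic cell, 7 non-classical monocyte, 6 natural killer cell and 6 erythroid markers 0 passed either. Of 8 T cell markers, 2 fell, Cd3g and Lef1, and 6 did not pass; they summed to 6120 to 6976 in ctrl and 4167 and 3012 in IR. Without IR replicate 2, the log2 fold changes of Cd3g and Lef1 were -0.797 and -0.940, against -1.207 and -1.344 with all libraries, so their size depends on that library. Cd3g missed the threshold without ctrl replicate 1, 2 or 3 (limma adjusted p = 0.205, 0.116 and 0.12). Lef1 missed it without ctrl replicate 1 or 2 (0.085 and 0.0786). The 12 lung epithelium markers, which the sort should remove, summed to 22962 to 26853 in ctrl, and to 117692 and 57074 in IR; 2 rose, Scgb1a1 and Scgb3a2, which encode secretory proteins of airway club cells, and the former missed the threshold after scaling to library totals (limma adjusted p = 0.0761). Scgb1a1 made up most of these sums, at 103972 and 50989 in IR. Without it, a choice made after the values were seen, the other 11 summed to 3634 to 6318 in ctrl and to 13720.0 and 6085 in IR. The sum of IR replicate 2 thus lay inside the ctrl range, whose top, ctrl replicate 1, held Sftpc at 2074 and Sftpa1 at 1721. Scgb3a2, also among the 11, was 550.4 to 638.5 in ctrl and 4236 and 2496.5 in IR. Of the 12 markers, 5 had both IR libraries above ctrl and 1 had both below, where 15.2% and 16.3% of all genes did. Epcam, a surface protein of epithelial cells, went the other way, at 185, 133 and 172 in ctrl and 45.8 and 74.8 in IR (log2 fold change -1.45, limma adjusted p = 0.161). Endothelial markers summed to 731.6 to 1020.0 in ctrl and 896.4 and 737.1 in IR, and fibroblast markers with a row to at most 61.3 in any library. The 12 markers called kept their direction after scaling to library totals, and 11 of them passed there. No marker with a row was at 0 in all 5 libraries. The part of these shifts in the values of Tlr13, Cd14 or Myd88 was not tested.

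**Figure D5:**
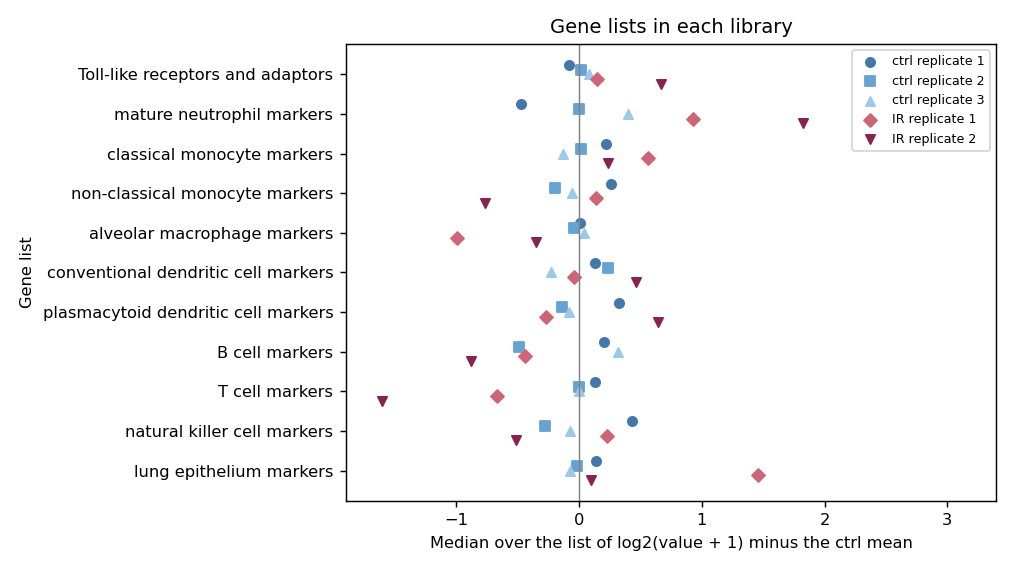
Median over each gene list of log2(value + 1) minus the ctrl mean (x axis) for the 10 Toll-like receptor and adaptor genes and 10 marker lists (y axis), 1 point per library. In IR replicates 1 and 2 the neutrophil median lies at 0.93 and 1.82 and that of the 10 genes at 0.15 and 0.66, while the T cell median lies at -0.67 and -1.60.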

How the data were processed

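CD45-sorted lung cells gave 5 RNA-seq libraries (3 ctrl, 2 IR), made with a stranded low-input total RNA kit, per the labels' protocols. HISAT2, HTSeq and mm10 are named per the submitters' processing notes; for annotation, strand setting and scaling no statement is given in the sources used here. As deposited, the unit is a signal, namely read counts after scaling by the authors: values have 1 decimal, and although between 84.6% and 100% of values from 5 to 20 were whole multiples of 1 step per library (within 0.06), the share fell to between 3.95% and 91.9% from 40 to 60, so reads could not be restored exactly and a count test was left out.

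Genes that reached 10 in 2 or more libraries (12777) were fitted as log2(value + 1) with limma 3.58.1 (R 4.3.3), mean trend, robust estimation and no covariate; p-values are two-sided and Benjamini-Hochberg adjusted over all genes, with a threshold of 0.05. Fold changes on this scale understate low genes. The fit was also run on values simulated from the means and spread of ctrl (12777 genes, 200 changed, 20 draws). There it called 33.9% of genes changed 2-fold and 66.2% of those changed 4-fold, and 7.19% of its calls were false. All simulated libraries had the ctrl spread, so these shares do not cover a library that stands apart, as IR replicate 2 did. The members and lists were chosen with earlier results of these data known. All 10 members are named; from each pathway list the genes called, or otherwise the 3 with the highest mean, and from each marker list up to 2, some given by their list's count. Genes named outside this rule for their role, such as Unc93b1 and Ptprc, were chosen with their values known. Replicate numbers follow accession order. Lengths and coordinates are from GENCODE vM21 (GRCm38, the assembly of mm10). Alternatives covered pseudocount, filter, scaling, the limma prior, array weights and each library left out.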

Additional observations from a re-analysis of the deposited data

How the results depend on the processing

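Of 140 values (10 genes under 14 alternatives), 134 kept their side of the limma threshold, 4 lost the call (all Tlr13) and 2 gained one (Myd88 and Tlr2, both without IR replicate 1). Direction changed for Tlr1 without IR replicate 2 (1.10) and Tlr9 without IR replicate 1 (0.09), neither called, and Irak3 lay at 0.00. The count of members called higher was 1 and became 0 with the mean trend off (2 at an unadjusted limma p under 0.05); leaving out 1 library gave 0 to 3. It was 0 without ctrl replicate 1 (4 unadjusted), ctrl replicate 2 (2) or IR replicate 2 (1). With 1 IR library left, that library is assumed to vary like ctrl. Pathway genes called higher numbered 1, and 4 with a pseudocount of 10, 2 with no filter, 2 with a minimum value of 50, 5 after scaling to library totals, 4 with robust estimation off, 4 with array weights and 0 with the mean trend off (8 unadjusted); leaving out 1 library gave 0 to 16 higher and 0 to 2 lower. Over all genes, 146 higher and 46 lower became 230 and 84 with a pseudocount of 10 and 0 and 0 with the mean trend off (583 and 662 unadjusted), and the lower genes numbered 23 with no filter, 116 after scaling to totals and 22 with robust estimation off. Leaving out 1 library gave 18 to 447 higher and 1 to 559 lower. The cause was not tested. A count test on whole reads was not run. No paired analysis was possible because the labels give no replicate numbers that the groups share. With a step of about 1 read, low genes such as Tlr1 are the least precise.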
